A study of Mus musculus with 8 samples.

Results

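The renin-angiotensin system was represented by 9 genes, which were chosen by name: *Ren1*, *Agt*, *Agtr1a*, *Agtr1b*, *Agtr2*, *Ace*, *Enpep*, *Mme* and *Atp6ap2*. All 9 were found among the 32285 genes counted. The rule that chose them uses no measured value, but it was made with earlier results of these data known. The kidneys came from 2 *Trim28*Δ/Δ embryos (ko, mice 1 and 2) and 2 *Trim28*f/f embryos (wt, mice 3 and 4), all male and labelled as embryonic day 17.5, whereas the methods give a later day. The ko embryos carried a Six2-cre transgene, which recombines both floxed *Trim28* alleles in nephron progenitors and thereby in their descendants, but not in the stroma, the ureteric bud lineage or the endothelium. TRIM28 is a corepressor that silences transposable elements and some genes. The cells of all 4 mice were sequenced as a single droplet pool, in which each mouse carried its own cell multiplexing oligonucleotide, so that a mouse is a replicate and a cell is not.

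Renin, made by the juxtaglomerular cells of the afferent arteriole, cleaves angiotensinogen to angiotensin I, and angiotensin-converting enzyme turns this peptide into angiotensin II. Angiotensin II acts through the AT1 and AT2 receptors and is broken down or trimmed by cell-surface peptidases. In the fetal kidney renin cells are spread along the growing arterioles and belong to the stromal lineage, and loss of renin, angiotensinogen, the converting enzyme or AT1 receptors disturbs the development of the vessels and the papilla.

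The identity of a mouse rests on 4 tags of 15 bases, which are shown here because every comparison of genotypes depends on them.
mouse 1 (ko): cgcgatatggtcgga
mouse 2 (ko): cggattccacatcat
mouse 3 (wt): aagatgaggtctgtg
mouse 4 (wt): aagctcgttggaaga
These tags gave 1472, 1652, 2568 and 1760 cells for mice 1, 2, 3 and 4, with 28545996 to 49372780 unique molecular identifiers (UMIs, 1 per captured RNA molecule) per mouse and a median of 16465 to 17131 UMIs per cell.

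Cells were grouped into clusters without using the 9 genes or the genes of the pathway lists, and clusters were named from lists of markers. Of 108 markers of the named classes, 93 had their highest level in their own class. The same markers gave the names, so this count is no independent check of them. There were 22 classes, and 19 of them held at least 10 cells of each mouse and were compared. Names such as PT-like (proximal tubule), ErPT-like (early proximal tubule), LOH-like (loop of Henle), DT-like (distal tubule), CD-like (collecting duct), UB-like (ureteric bud tip) and NPC-like (nephron progenitor) stand for such marker-defined classes. Clusters that did not meet the naming rule, which is given with the processing, keep a number. Mouse 3 stood apart, because it held 165 of the 166 cells of a CD-like cluster and 85 of the 86 cells of cluster 22. The level of *Trim28* was lower in the ko mice in 9 classes, those of the nephron and of cycling cells (edgeR adjusted p from 4.9e-05 to 0.033), for example at 21.9 and 24.7 against 64.4 and 80.3 CPM (UMIs of the gene per 1000000 gene UMIs of the class and mouse) in PT-like cells. The 3′ counts fall on exons that the recombined allele keeps, so that this level does not count the deletion itself. In podocyte-like cells it was not called (edgeR log2 fold change −1.45, adjusted p = 0.347). In UB-like cells, which lie outside the nephron progenitor lineage, the level was 163 and 153 against 130 and 165 CPM.

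The transcription start regions of 3 of the genes hold the letters TATAAA (searched on both strands in the 250 bases before the start) in the direction of the gene. They are shown as 30 bases with the motif in capitals, because they lie just before the RefSeq starts of the renin, angiotensinogen and *Agtr1b* transcripts. Sequences are from RefSeq on GRCm38.p6.
Ren1, chr1:133350633-133350662, plus strand: atacatggtgtgTATAAAagaaggctcagg
Agt, chr8:124569719-124569748, minus strand: ccaccccttgagTATAAAtaagcctgcttg
Agtr1b, chr3:20367191-20367220, minus strand: gcccctttgctgTATAAAttgtagctgtct
The first base of the motif lay 29, 30 and 31 bases before the start that RefSeq gives. For *Ren1* the gene span of GENCODE, given below, begins upstream of the printed bases. *Ace* and *Enpep* hold the letters only on the opposite strand, so that 5 of the 11 listed start regions of 8 of the genes had a match, whereas 12.4% of 32851 start regions of all genes did. The letters CCAAT were found in 33.9% of all start regions and in at least 1 start region each of *Agtr1b*, *Agtr2*, *Ace*, *Enpep*, *Mme* and *Atp6ap2*. None of the start regions of these 8 genes (*Agtr1a* is not listed) held TGACGTCA, the full cAMP response element, which 1.55% of all start regions hold. These matches describe letters, and binding was not measured.

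The genes differed in where they were highest among the 19 classes compared, as the map of mean levels by class shows. *Ren1* was highest in mural-like cells, *Agt* and *Ace* in PT-like cells, *Agtr1a* in mural-like cells, *Agtr2* and *Agtr1b* in cluster 14, *Enpep* in podocyte-like cells, and *Mme* and *Atp6ap2* in intercalated-like cells. Cluster 14 was led by *Pdgfrb*, *Ebf1* and *Gucy1a1*, genes of perivascular cells, and stayed unnamed. It was also a cycling cluster, since 5 of the 7 cycling markers were highest there (*Mki67*, the proliferation marker, at 716 against 490 CPM in cycling-like cells). Because classes were built from the same cells, the order of levels is a description without a test.

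**Figure D1:**
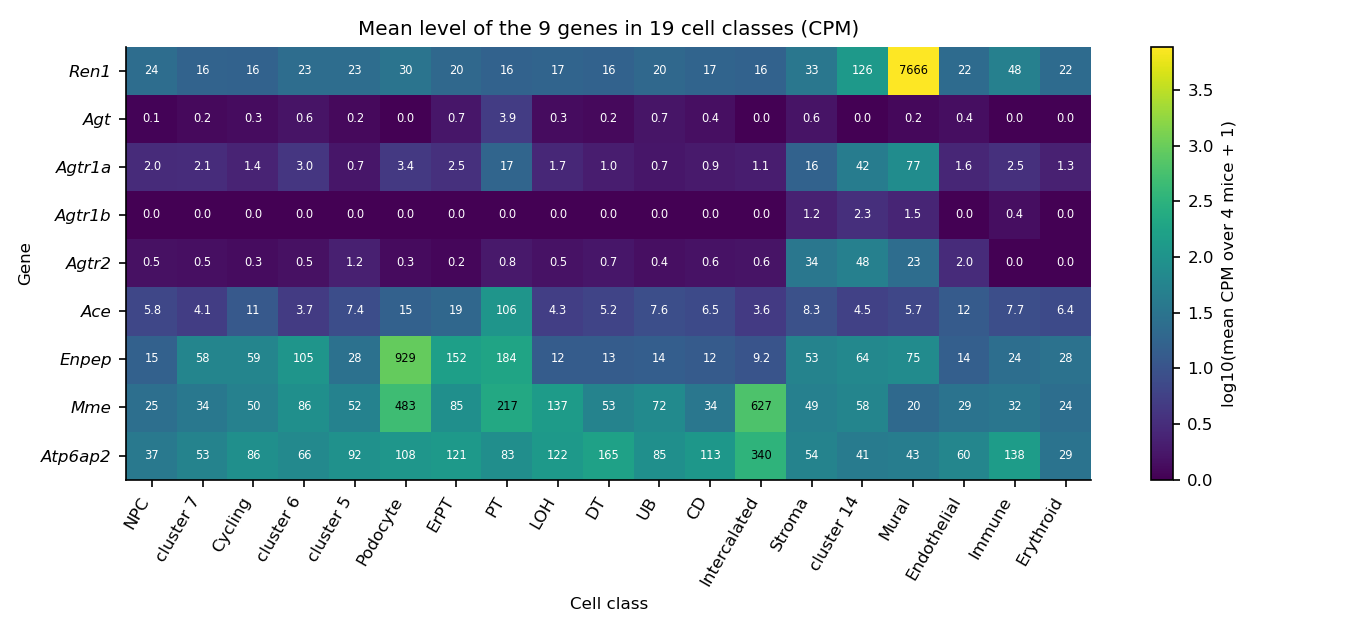
Mean CPM over the 4 mice of the 9 genes (vertical axis) in the 19 classes compared (horizontal axis, with the ending "-like" left out); the color gives log10(mean CPM + 1) and each cell prints the mean CPM. *Ren1* stands out in mural-like cells with 7666 CPM, and *Agt* and *Agtr1b* stay below 4 CPM in every class shown.

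RNA that leaks from broken cells reaches all droplets, so the level in barcodes with 10 to 100 UMIs was taken as free RNA. Free RNA held 200 CPM of *Ren1*, 1.64 CPM of *Agt*, 34.5 CPM of *Ace* and no UMI of *Agtr1b*. It made up an estimated 9.96% to 29.95% of the UMIs of the classes compared, and values near the product of both are read as background.

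In the comparison of ko with wt within classes, 87 combinations of a gene and a class could be tested and 1 was called, *Enpep* in cluster 7 (edgeR quasi-likelihood test on UMI sums per mouse, adjusted p = 0.0399). Over all genes and classes, 0.382% of tests were called. At an unadjusted p under 0.05 there were 12 of the 87, or 13.8%, against 6.85% of all tests. With all cells of a mouse summed, 0 of the 8 genes tested were called by edgeR, against 0.501% of all genes. In that sum 4 genes (*Agt*, *Mme*, *Ace* and *Agtr2*) had an unadjusted edgeR p under 0.05, as had 16.4% of all genes. DESeq2 called *Agt* alone of the 9 genes (adjusted p = 0.00806). These shares of all genes are from edgeR. The share of all genes that DESeq2 called is not given, so its calls cannot be set against them. Sums over all cells also move with the mix of cell types. The PT-like share was 20.9% and 19.98% in the ko mice but 9.46% and 10.4% in the wt mice, and the part of this mix in the sums was not tested. Where genotypes are said below not to overlap, this is a description. An exact permutation test of 2 against 2 mice cannot give a p under 0.333, and the share of all genes without overlap was not counted.

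**Figure D2:**
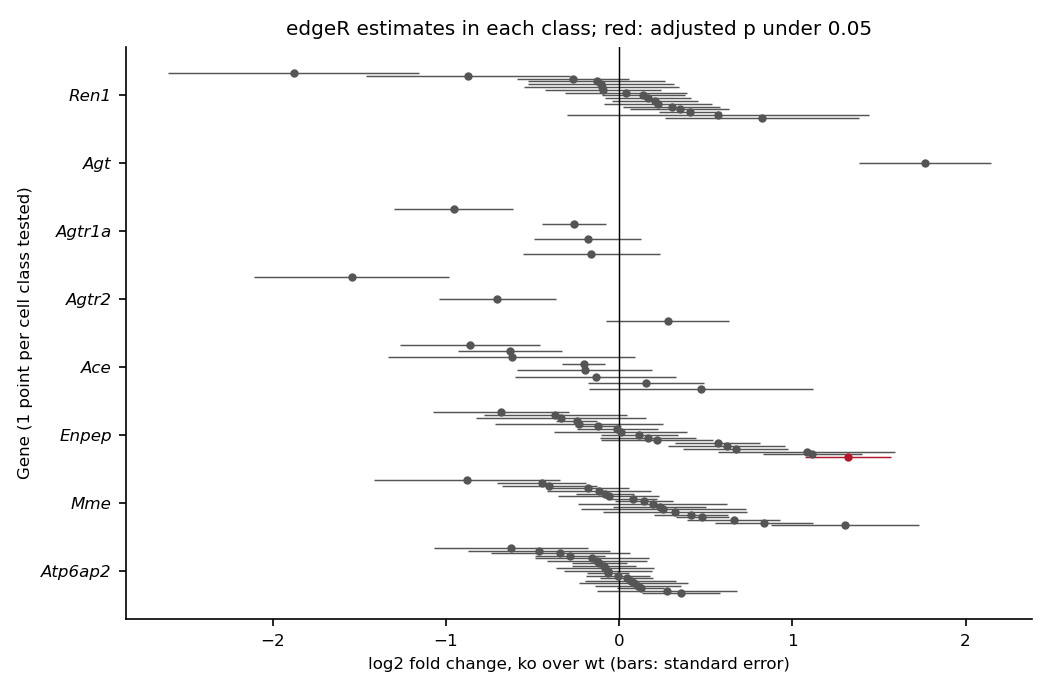
log2 fold change of ko over wt (horizontal axis) for each gene (vertical axis), with 1 point for each class in which the gene was tested and bars of 1 standard error from edgeR. Of the 87 points 1 is red (adjusted p under 0.05), *Enpep* in cluster 7 at 1.32.

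*Ren1* (ENSMUSG00000070645, chr1:133350510-133360325 on GRCm38, plus strand) encodes renin, the first enzyme of the cascade, and is the single renin gene of C57BL/6 mice, the background of the colony. In mural-like cells, a class of 163 cells marked by pericyte and smooth muscle genes, it reached 15290 and 3307 CPM in the ko mice and 11190 and 885 CPM in the wt mice. Each genotype held 1 mouse with a high and 1 with a low level, and the genotypes overlapped. The mean was 7666 ± 6719 CPM (SD, n = 4 mice), and 84.9% of all *Ren1* UMIs lay in this class. The fold change of ko over wt was 0.57 ± 0.87 on the log2 scale (SE, edgeR adjusted p = 0.988), and its sign turned when mouse 1 (−0.995) or mouse 4 (−0.33) was left out.

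Cluster 14 came next for *Ren1*, with 167 and 13.0 CPM in the ko mice and 112 and 210 CPM in the wt mice. The 4 mice of the mural-like class all lay above these values. In immune-like cells mouse 3 had 129 CPM and the other 3 mice 18.1 to 24.1 CPM, where 1 cell held 103 UMIs. In the remaining classes the mean ran from 15.5 to 33.3 CPM, where free RNA alone would give 19.96 to 51.6 CPM, so that these levels are not read as expression.

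**Figure D3:**
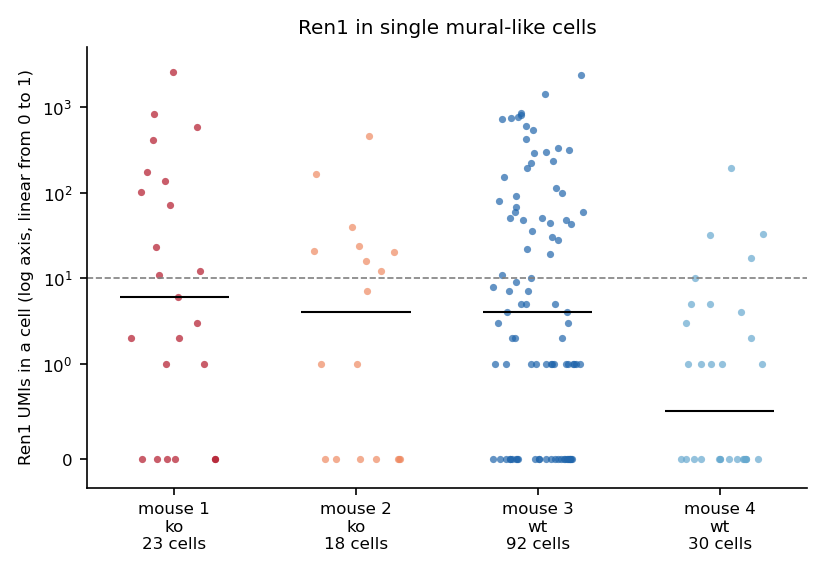
*Ren1* UMIs in single mural-like cells (vertical axis, log scale that is linear from 0 to 1) by mouse (horizontal axis, with genotype and number of cells). Points are cells, black lines are medians, and the dashed line marks the minimum of 10 UMIs above which a cell is called renin-rich; all 4 mice hold cells at 0 and cells above 100.

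Within the mural-like class *Ren1* was very uneven. It had no UMI in 54 of the 163 cells and at least 10 UMIs in 62 cells, called renin-rich below. Renin-rich mural-like cells held 84.3% of all *Ren1* UMIs, with a median of 85.5 and a maximum of 2577 UMIs in a cell. No more than 7 cells held 50% of the *Ren1* UMIs of the class. Few cells lay near the minimum, with 11 cells at 5 to 9 UMIs and 9 cells at 10 to 19 UMIs. Of the 72 renin-rich cells in all, 86.1% were mural-like and 7 others were in cluster 14.

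The share of renin-rich cells among mural-like cells was 47.8% in mouse 1 (95% exact binomial interval 26.8% to 69.4%, 11 of 23 cells) and 44.4% in mouse 2 (21.5% to 69.2%, 8 of 18). It was 41.3% in mouse 3 (31.1% to 52.1%, 38 of 92) and 16.7% in mouse 4 (5.64% to 34.7%, 5 of 30). These intervals cover counting error only. Both ko mice were above both wt mice, but mouse 3 lay close to them and the intervals overlapped widely. With a minimum of 20 UMIs (33.3% in mouse 2 against 38.0% in mouse 3) or of 1000 CPM (38.9% against 41.3%) the genotypes overlapped, with an exact permutation p of 0.667. The difference of 17.1 percentage points had an exact two-sided permutation p of 0.333 (n = 2 and 2 mice), which is the smallest that this design allows. It was 4.83 percentage points without mouse 4 and 29.5 without mouse 3. Among all cells the share was 0.815% and 0.545% in the ko mice and 1.64% and 0.511% in the wt mice, and the groups overlapped (exact permutation p = 1).

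Renin-rich mural-like cells were set beside the other 101 mural-like cells, a split made by *Ren1* itself, so the values are a description. The values pool the cells of the 4 mice, and 38 of the 62 renin-rich cells came from mouse 3. Of the 15 genes of the renin cell list, 9 had the higher CPM in the renin-rich cells and 6 the lower. The 5 given here, *Akr1b7*, *Adrb1*, *Gja5*, *Gja4* and *Foxd1*, were chosen after their values were seen. *Akr1b7*, an aldo-keto reductase known as a second product of renin cells, was at 1075 CPM in the renin-rich and 178 CPM in the other cells. *Adrb1*, the beta-1 adrenergic receptor through which sympathetic nerves release renin, was at 37.1 against 4.52 CPM. The connexin genes *Gja5* and *Gja4* were at 48.9 against 24.1 CPM and at 105 against 46.7 CPM. *Foxd1*, a transcription factor of the stromal progenitors, was at 1.48 against 13.6 CPM, and *Agtr2* was at 10.4 against 39.9 CPM. *Agtr1a* was at 87.5 against 69.3 CPM and *Enpep* at 83.0 against 64.8 CPM. In mouse 4, with 5 renin-rich cells, the order was reversed for *Gja5* (20.3 against 50.2 CPM), *Gja4* (40.6 against 56.9 CPM), *Adrb1*, *Agtr1a* and *Enpep*. *Akr1b7*, *Foxd1* and *Agtr2* kept their order in each mouse. For *Foxd1* and *Agtr2* the renin-rich cells held only 1 and 7 UMIs, all from mouse 3. In mice 1, 2 and 4 both genes were at 0 CPM there, so their order rests on few UMIs. The genes whose class means were most like *Ren1* over the 19 classes were *Olfr558* (Pearson r = 0.99), *Htra4*, *Abcb1a*, *Trarg1* and *Vip*. All values of r are over these 19 classes, which share the 4 mice and the library, and were compared for 10451 genes; they carry no test.

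*Agt* (ENSMUSG00000031980, chr8:124556534-124569706, minus strand) encodes angiotensinogen, the substrate of renin. Only 214 UMIs were counted in all cells, 54.2% of them in PT-like cells. In PT-like cells *Agt* was at 5.44 and 6.41 CPM in the ko mice and 1.21 and 2.34 CPM in the wt mice. Both ko mice lay above both wt mice. The log2 fold change was 1.77 ± 0.38, with an unadjusted edgeR p of 0.00180 and an adjusted p of 0.0922, so that it was not called. In this class 0.946% of all genes were called. The adjusted p fell below the threshold without the filter on low counts (0.000363) and without mouse 3 (0.0299) or mouse 4 (6.5e-05), and stayed above it in the other settings. Over all cells *Agt* was at 2.59 and 2.38 CPM in the ko mice and 0.608 and 0.833 CPM in the wt mice, again without overlap (log2 fold change 1.75 ± 0.30, edgeR adjusted p = 0.0698).

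Cluster 17, an unnamed cluster of 157 cells led by *Cryab*, *Corin* and *Cp*, held another 22.9% of the *Agt* UMIs. Its levels were 24.3 and 10.2 CPM in the ko mice and 10.1 CPM in mouse 4, where mouse 1 was high and mice 2 and 4 were alike. In each of these mice the level was above that of PT-like cells. Mouse 3 gave only 2 cells to this cluster, so the cluster was not tested.

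Of the 1065 PT-like cells, 1062 fell into 2 clusters of a finer clustering, which held 1154 cells in all. In both clusters the markers of the convoluted tubule stood further above the other clusters than those of the straight tubule. A cluster of 604 cells led by *Fbp1* and *Kap* held 242 and 244 ko cells and 30 and 88 wt cells. A cluster of 550 cells led by *Sult1d1* and *Hdc* held 81 and 122 ko cells and 227 and 120 wt cells. *Agt* was at 5.73 and 7.82 CPM against 0 and 3.86 CPM in the former and at 3.58 and 1.16 CPM against 1.39 and 0.747 CPM in the latter. The genotypes overlapped in the latter and did not in the former. The summed level of 7 markers of the straight proximal tubule in PT-like cells was 1278 and 1003 CPM against 559 and 881 CPM, and that of 6 markers of the convoluted part 3935 and 3654 against 3533 and 4198 CPM. The part of this mix in the level of *Agt* was not tested.

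**Figure D4:**
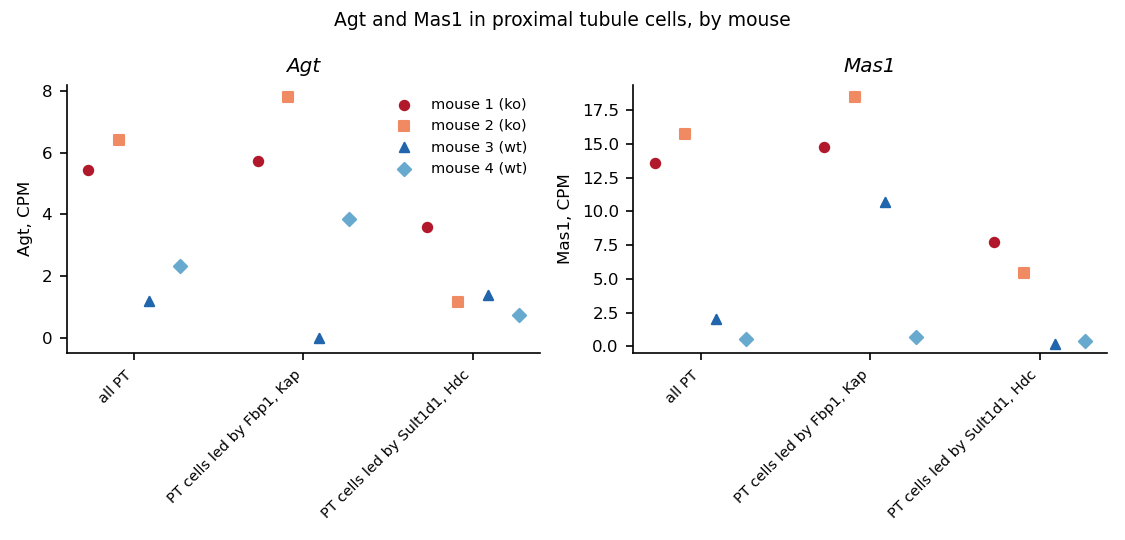
*Agt* (left) and *Mas1* (right) in CPM (vertical axes) for each mouse in all PT-like cells and in the finer clusters led by *Fbp1* and *Kap* and by *Sult1d1* and *Hdc* (horizontal axes). In all PT-like cells both ko mice lie above both wt mice for both genes, whereas in the cluster led by *Sult1d1* and *Hdc* the *Agt* values of mouse 2 and mouse 3 cross.

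*Agtr1a* (ENSMUSG00000049115, chr13:30336441-30382867, plus strand) encodes the main AT1 receptor of rodents, which constricts vessels. In mural-like cells it was at 71.1 and 73.3 CPM in the ko mice and 72.8 and 89.0 CPM in the wt mice. The 4 mice were close together, with a log2 fold change of −0.18 ± 0.31 (edgeR adjusted p = 0.988). Cluster 14 followed with 30.1 and 28.2 CPM against 50.4 and 60.2 CPM. There both ko mice were below both wt mice, with a log2 fold change of −0.96 ± 0.34 (unadjusted p = 0.0155, edgeR adjusted p = 0.595). PT-like cells held 16.8 and 14.5 CPM against 17.4 and 20.5 CPM, and stroma-like cells 16.6 and 14.3 CPM against 19.5 and 13.0 CPM. Mural-like cells lay above cluster 14 and cluster 14 above PT-like cells in all mice, whereas PT-like and stroma-like cells overlapped. PT-like cells, the class with the most cells, held 43.8% of the 1050 *Agtr1a* UMIs. *Trpc1* (r = 0.94), *Rasl12*, *Rgs5* and *Ndufa4l2* were among the genes with class means most like *Agtr1a*.

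*Agtr1b* (ENSMUSG00000054988, chr3:20314473-20367177, minus strand), the second AT1 receptor gene of rodents, was counted 17 times in all. Of these UMIs 9 were in cluster 14, 5 in stroma-like, 2 in mural-like and 1 in immune-like cells. No class passed the filter on low counts, so it was not tested.

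*Agtr2* (ENSMUSG00000068122, chrX:21484544-21489164, plus strand) encodes the AT2 receptor, which is abundant in fetal mesenchyme. Its 3 highest classes lie outside the nephron, and cluster 14, stroma-like and mural-like cells held 36.6%, 29.2% and 12.9% of its 465 UMIs. Cluster 14 held 32.5 and 41.2 CPM in the ko mice and 50.4 and 67.9 CPM in the wt mice (log2 fold change −0.70, edgeR adjusted p = 0.838). Stroma-like cells held 29.8 and 45.5 CPM against 23.3 and 37.1 CPM. Mural-like cells held 15.5 and 8.62 CPM against 38.2 and 31.6 CPM, where the ko values rest on 5 and 2 UMIs. The genotypes overlapped in stroma-like cells and did not overlap in cluster 14 and mural-like cells, where the ko mice were lower. In mural-like cells the log2 fold change was −1.54 ± 0.56 (unadjusted p = 0.0201, edgeR adjusted p = 0.958). The levels of these 3 classes overlapped with each other, and the mural-like level lay above the endothelial-like level in all mice. PT-like cells, the class with the most *Agtr1a* UMIs, had *Agtr2* at 0.585 to 1.03 CPM and held 4.95% of its UMIs. *Ddr2* (r = 0.99), *Pdgfra*, *Cygb*, *Dact1* and *Pcdh9* were most like *Agtr2*.

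*Ace* (ENSMUSG00000020681, chr11:105967945-105989964, plus strand) encodes angiotensin-converting enzyme. In PT-like cells, which carry the enzyme on their brush border, it was at 103 and 92.7 CPM in the ko mice and 116 and 111 CPM in the wt mice. Both ko mice were below both wt mice, with a log2 fold change of −0.20 ± 0.13 that was not called (edgeR adjusted p = 0.553). PT-like cells held 69.9% of its 4055 UMIs. Of the other classes compared, ErPT-like cells followed far below, with 10.6 and 18.7 CPM against 20.9 and 26.1 CPM. Between them lay clusters that were not compared, such as cluster 17 with 33.9, 29.95 and 38.9 CPM in mice 1, 2 and 4 and cluster 22 with 62.2 CPM in mouse 3. Over all cells the order of genotypes was the opposite one, at 34.3 and 31.2 CPM in the ko mice and 24.5 and 23.1 CPM in the wt mice (log2 fold change 0.42 ± 0.12, unadjusted p = 0.0157, edgeR adjusted p = 0.193). PT-like cells, which held most of the *Ace* UMIs, made up a larger share of the cells of the ko mice, as given above. *Slc6a18* (r = 0.98), *Gm4450*, *Slc34a1*, *Slc22a12* and *Slc22a6*, among them transporters of the proximal tubule, were most like *Ace*.

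In adults the enzyme is also known from vessels. Endothelial-like cells as a whole were at 8.97 to 13.7 CPM, near the 7.73 CPM that free RNA would give. Of their clusters, cluster 23 (79 cells, led by *Tm4sf1*, *Sox17* and *Gja4*, genes of arterial endothelium) had 42.4, 36.8 and 14.1 CPM in mice 1, 2 and 4. Cluster 4 (469 cells) had 6.70, 8.29, 11.0 and 8.41 CPM in mice 1 to 4. The level was thus higher in cluster 23 in mice 1 and 2, whereas the value of mouse 4 rests on 2 UMIs in 15 cells, and mouse 3 had under 10 cells there.

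*Enpep* (ENSMUSG00000028024, chr3:129269175-129332720, minus strand) encodes glutamyl aminopeptidase (aminopeptidase A), which converts angiotensin II to angiotensin III. Podocyte-like cells held 1041 and 940 CPM in the ko mice and 938 and 800 CPM in the wt mice. All 4 were above every other class. PT-like cells were at 174 and 162 against 207 and 194 CPM, and ErPT-like cells at 146 and 146 against 147 and 169 CPM. These classes overlapped with each other and lay above cluster 6. *Ildr2* (r = 0.91), *Iyd*, *Prr5*, *Nt5c3* and *Golim4* were most like *Enpep*.

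*Enpep* was also the 1 gene called between genotypes. Cluster 7, 374 cells led by *Tmem100*, *Six2*, *Wnt4* and *Wt1*, genes of committing nephron progenitors, was also a cycling cluster, with its best marker score for the cycling list (1.82, against 1.54 for the NPC list, both mean log2 ratios), and the summed level of 7 cycling markers was 4104 and 3608 CPM in the ko mice and 4233 and 3656 CPM in the wt mice. For *Enpep* it had 83.5 and 84.4 CPM in the ko mice and 37.4 and 25.2 CPM in the wt mice. Both ko mice were above both wt mice. *Enpep* rose by 1.32 ± 0.25 on the log2 scale (unadjusted p = 0.000552, edgeR adjusted p = 0.0399). In this cluster 1.46% of all genes were called, the highest share of any class. At resolutions 0.4 and 1.2 the cluster kept 374 and 373 of its 374 cells. The edgeR adjusted p there (0.0399 and 0.0329) thus repeats nearly the same test. The call held with DESeq2 (adjusted p = 0.0190) and with total UMIs in place of TMM (0.0337). It was lost without mouse 1 (adjusted p = 0.417), without mouse 2 (0.437), without the cells that Scrublet marked as doublets (0.183) and with each other assignment of cells to mice (0.102 and 0.124), while the estimate stayed between 0.97 and 1.32 in these settings.

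Other values of cluster 7 also differed between the genotypes without overlap. The summed level of 7 NPC markers was 125 and 100 CPM in the ko mice and 447 and 623 CPM in the wt mice. The summed level of 8 podocyte markers was 349 and 350 against 230 and 132 CPM, and that of 7 renal vesicle markers 2683 and 2560 against 1646 and 1961 CPM. Thus cluster 7 of the ko mice held less of the progenitor markers and more of the later ones. Scrublet marked 12.1% and 11.4% of the ko cells and 5.69% and 4.598% of the wt cells. The cluster held 33 and 44 ko cells and 123 and 174 wt cells. The part of each of these in the level of *Enpep* was not tested.

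Whether the change in cluster 7 differed from that in another class was tested with the interaction of genotype and class in edgeR, blocked by mouse. The tests were run against the 13 classes in which *Enpep* reached 20 CPM in at least 1 mouse. Cluster 7 entered these tests because *Enpep* was called there, and its change was the highest of the 17 classes in which it could be tested. The choice thus favored differences above 0, and the tests are no independent evidence of it. Of the 13 differences 4 were called, where 0.791% of all such tests were called. They were those with cycling-like cells (1.32, adjusted p = 0.000711), ErPT-like cells (1.46, 0.000290), PT-like cells (1.56, 0.000793) and podocyte-like cells (1.26, 0.0214). Under 7 other settings (a mouse left out, no cells marked by Scrublet, each other assignment of cells to mice) the difference with ErPT-like cells was called in 7, those with cycling-like and PT-like cells in 6 each and that with podocyte-like cells in 2. Without mouse 2 it was called with ErPT-like cells alone. With stroma-like cells the difference was 0.15 and with NPC-like cells 0.35 (adjusted p = 0.946 and 0.965).

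**Figure D5:**
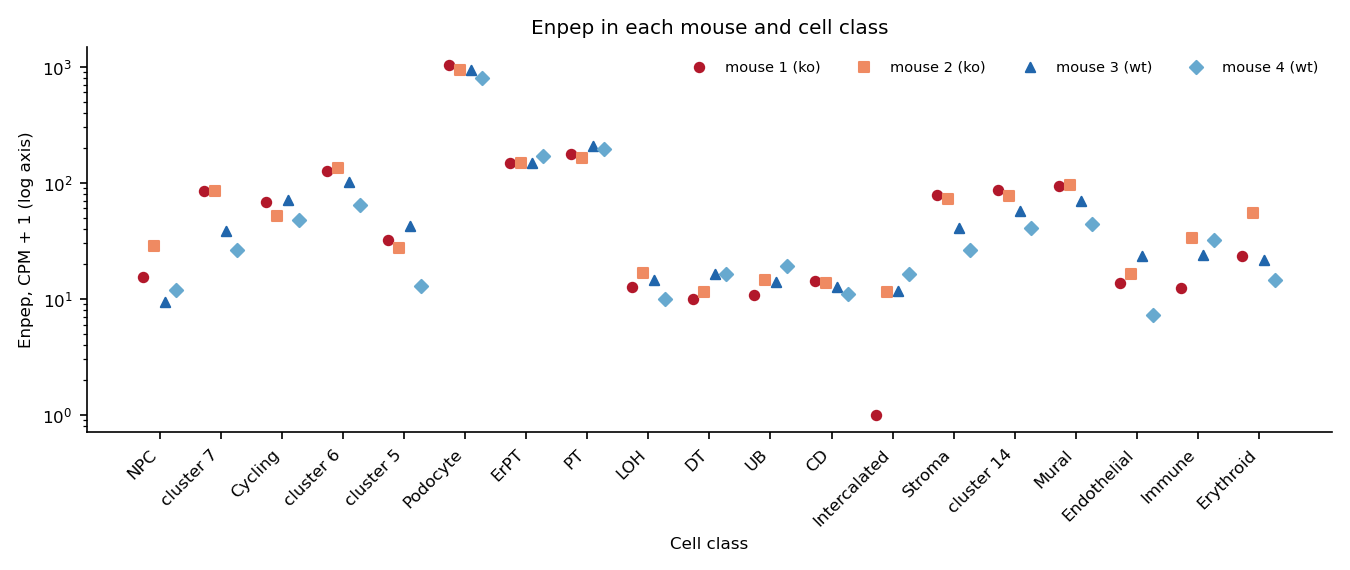
*Enpep* in CPM + 1 (vertical axis, log scale) for each mouse in the 19 classes (horizontal axis), red for ko and blue for wt. The podocyte-like values of 800 to 1041 CPM stand above all others, and both ko mice lie above both wt mice in cluster 7 and in stroma-like cells, among others, and below them in PT-like, ErPT-like, DT-like and intercalated-like cells.

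The same order of mice without overlap was found in classes where *Trim28* was called lower in the ko mice and in classes where it was not. Among the former, cluster 6 had 124 and 132 against 99.5 and 63.0 CPM of *Enpep* (edgeR adjusted p = 0.808). Also among the former were NPC-like cells, at 14.6 (mouse 1, 3 UMIs in 15 cells) and 27.4 against 8.31 and 10.9 CPM (0.695). Among the latter were stroma-like cells, mural-like cells and cluster 14, besides podocyte-like, CD-like and erythroid-like cells. Erythroid-like cells had 22.5 and 54.1 against 20.6 and 13.4 CPM. The opposite order, with both ko mice below both wt mice, was found in PT-like and ErPT-like cells (values above), in DT-like cells at 9.01 and 10.4 against 15.5 and 15.2 CPM and in intercalated-like cells at 0 and 10.5 against 10.8 and 15.4 CPM. *Enpep* was not called in the former 3 classes and could not be tested in intercalated-like cells. Stroma-like cells had 77.3 and 71.6 CPM of *Enpep* in the ko mice and 39.6 and 25.1 CPM in the wt mice, with a log2 fold change of 1.11 ± 0.28 (unadjusted p = 0.00319) that was not called (edgeR adjusted p = 0.996). Mural-like cells were at 92.8 and 94.9 against 68.3 and 43.1 CPM and cluster 14 at 85.8 and 75.8 against 55.9 and 39.7 CPM. In stroma-like cells, mural-like cells and cluster 14 mouse 4 was the lowest of the mice. Mouse 4 was also the lowest in cluster 7, cluster 6, podocyte-like cells and CD-like cells, among others. In NPC-like cells the lowest was mouse 3. How many of all genes show either order in these classes was not counted.

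*Mme* (ENSMUSG00000027820, chr3:63241537-63386030, plus strand) encodes neprilysin, which turns angiotensin I into angiotensin 1-7 and degrades other peptides. Intercalated-like cells held 662 and 577 CPM in the ko mice and 539 and 731 CPM in the wt mice. Podocyte-like cells held 536 and 676 CPM against 418 and 301 CPM. The genotypes overlapped in the former and did not in the latter, where the ko mice were higher (log2 fold change 0.66 ± 0.27, unadjusted p = 0.0311, edgeR adjusted p = 0.629). The summed level of 8 PT markers in podocyte-like cells was 319 and 358 against 431 and 822 CPM, and its part in this was not tested. PT-like cells were at 240 and 205 against 192 and 233 CPM and held 37.6% of the 15710 UMIs. LOH-like cells were at 121 and 147 against 142 and 137 CPM. The podocyte-like level was above the PT-like level, and this above the LOH-like level, in all mice, whereas the intercalated-like and podocyte-like levels overlapped. Cluster 17, which was not compared, had 359, 302 and 497 CPM in mice 1, 2 and 4.

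In the nephron progenitor classes *Mme* was low and ordered as *Enpep* was. NPC-like cells had 24.3 and 47.0 CPM in the ko mice and 13.3 and 15.0 CPM in the wt mice (log2 fold change 1.31 ± 0.43, edgeR adjusted p = 0.277). The value of mouse 1 rests on 5 UMIs in 15 cells, and without mouse 2 the log2 fold change was 0.60. Cluster 7 had 41.1 and 49.1 against 27.9 and 19.3 CPM (0.84 ± 0.28, adjusted p = 0.352). Neither passed the test, though the genotypes did not overlap in either. Over all cells *Mme* was at 129 and 123 against 93.2 and 93.2 CPM (0.39 ± 0.10, edgeR adjusted p = 0.162). In the finer PT-like clusters it was at 264 and 231 against 227 and 292 CPM among cells led by *Fbp1* and *Kap*, and at 126 and 114 against 176 and 151 CPM among those led by *Sult1d1* and *Hdc*. The genotypes overlapped in the former cluster and did not in the latter, where the ko mice were lower, which was not tested. *Tdrp* (r = 0.84), *Acad11*, *Tnfrsf21*, *Gadd45a* and *Sh3bgrl2* were most like *Mme*.

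*Atp6ap2* (ENSMUSG00000031007, chrX:12587801-12617049, plus strand) encodes the prorenin receptor, which is also an accessory subunit of the vacuolar proton pump. It was found in every class. Intercalated-like cells, which are rich in this pump, held 349 and 369 CPM in the ko mice and 265 and 378 CPM in the wt mice. All 4 were above DT-like cells, which held 168 and 154 against 158 and 180 CPM. The genotypes overlapped in both classes. Of the 19 classes in which it could be tested, 0 were called by edgeR, 0 by DESeq2 and 0 had an unadjusted edgeR p under 0.05, with log2 fold changes from −0.63 to 0.36. The genes most like it included the pump subunits *Atp6v1h* (r = 0.92) and *Atp6v0b*, besides *Plekhb2*, *2010315B03Rik* and *Rnaset2b*.

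Lists of other genes give the surroundings of the 9 genes. Of 17 further genes of the renin-angiotensin system, 13 could be tested in 184 combinations with a class. Of these 2 rose in the ko mice and 0 fell (edgeR), or 1.09% called, against 0.382% of all tests. An unadjusted p under 0.05 was found for 18, or 9.78%, against 6.85% of all tests, and these shares of all tests also apply to the lists that follow. With all cells summed, edgeR called *Mas1* (log2 fold change 3.17, adjusted p = 0.0405) and no other gene of this or the following lists, and this call was lost without mouse 1 (adjusted p = 0.0640), with clara (0.0504) and at a minimum of 2500 UMIs (0.0508). DESeq2 called *Mas1* and further genes of these lists over all cells, among them *Anpep* (adjusted p = 0.000265), *Klk1* (0.000613) and *Ptgs2* (0.00013). The share of all genes that DESeq2 called is not given, and the shares above are from edgeR. The median log2 fold change in classes was −0.02, and the median of the 19 class medians of all genes −0.01.

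*Mas1*, the receptor of angiotensin 1-7, was at 13.6 and 15.7 CPM in the PT-like cells of the ko mice and 2.07 and 0.585 CPM in those of the wt mice. Both ko mice were far above both wt mice, and *Mas1* rose by 3.42 ± 0.41 on the log2 scale (edgeR adjusted p = 0.0132). This call in PT-like cells held in every setting tried. In the cluster led by *Sult1d1* and *Hdc* it was at 7.76 and 5.41 against 0.199 and 0.373 CPM. In the cluster led by *Fbp1* and *Kap* it was at 14.8 and 18.5 CPM in the ko mice, at 10.7 CPM in the 30 cells of mouse 3 and at 0.701 CPM in mouse 4. The genotypes did not overlap in either cluster.

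*Klk1*, the tissue kallikrein that releases kinins in the distal nephron, was at 450 and 690 CPM in the DT-like cells of the ko mice and 90.5 and 150 CPM in those of the wt mice. The groups did not overlap, and *Klk1* rose by 2.24 ± 0.28 (edgeR adjusted p = 0.00478), where 0.471% of all genes were called. Lower values in the ko mice that were not called were found in intercalated-like cells (3.92 and 2.11 against 28.7 and 35.1 CPM, log2 fold change −3.47, edgeR adjusted p = 0.842), stroma-like cells (−1.55, 0.996) and ErPT-like cells (−1.03, 0.657), with unadjusted p of 0.00174, 0.0314 and 0.0391. Free RNA alone would give *Klk1* 10.8, 18.3 and 10.9 CPM in these classes. The summed level of 6 ErPT markers in DT-like cells was 1246 and 1291 CPM in the ko mice and 2366 and 2990 CPM in the wt mice, and its part in the changes of this class was not tested. *Klk1* belongs to a family of near-identical kallikrein genes, so that reads may be shared among them. *Anpep*, aminopeptidase N, was the gene of this list with the highest level, at 478 and 389 against 281 and 372 CPM in PT-like cells, and was not called there.

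Of 15 genes of renin cells and their control, 13 could be tested in 124 combinations, and 0 were called by edgeR and 1 by DESeq2 (*Akr1b7* in mural-like cells, adjusted p = 0.00408), with 13 (10.5%) at an unadjusted edgeR p under 0.05 and a median log2 fold change of −0.01. *Gnas*, the stimulatory G protein subunit of the cAMP pathway that drives renin, was at 3546 and 2928 against 3719 and 3627 CPM in mural-like cells.

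Of 5 macula densa genes, all tested in 23 combinations with a median log2 fold change of 0.10, 0 were called by edgeR, 0 by DESeq2, and 5 (21.7%) had an unadjusted edgeR p under 0.05. Of these 4 were lower in the ko mice, with log2 fold changes of −1.72 for *Nos1* in CD-like cells, −2.21 and −0.76 for *Pappa2* in UB-like cells and cluster 5, and −1.24 for *Oxtr* in PT-like cells (edgeR adjusted p from 0.382 to 1). *Ptgs2*, cyclooxygenase 2, whose prostaglandins stimulate renin release, was at 213 and 163 CPM in the LOH-like cells of the ko mice and 22.6 and 80.4 CPM in those of the wt mice. The groups did not overlap, with a log2 fold change of 1.91 ± 0.47 that was not called (edgeR adjusted p = 0.298). *Pappa2*, a protease of the same cells, was at 247 ± 43.8 CPM in LOH-like cells (SD, n = 4 mice).

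Of 6 genes of the mineralocorticoid response, tested in 63 combinations with a median log2 fold change of −0.04, 1 (1.59%) fell and 0 rose (edgeR), and 8 (12.7%) had an unadjusted p under 0.05. *Scnn1g*, a subunit of the epithelial sodium channel, was at 83.8 and 61.1 CPM in the DT-like cells of the ko mice and 156 and 177 CPM in those of the wt mice. It fell by 1.21 on the log2 scale (SE 0.21, edgeR adjusted p = 0.0254), and the call was lost without mouse 2, at both other resolutions and with each other assignment of cells to mice, with a log2 fold change of −0.69 at resolution 0.4 and −0.98 to −1.13 in the others. *Sgk1*, a kinase induced by aldosterone, was highest in endothelial-like cells (312 ± 23.4 CPM), and *Hsd11b2*, which shields the mineralocorticoid receptor from glucocorticoids, in CD-like cells (262 ± 78.9 CPM).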

How the data were processed

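A single droplet pool was analysed, for which the authors deposited UMI counts of 32285 genes and 12 tags in 3921239 barcodes, neither normalized nor filtered for cells. In it 8 tags were in use, the 4 of the listed mice and others whose source is not stated. The authors counted with Cell Ranger 6.0.0 (the file header names another version), and the submitters' notes name GRCm38. The 6 bulk samples were not analysed here.

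Barcodes with at least 6890 UMIs (order-of-magnitude rule, 24000 expected cells), 200 genes and a mitochondrial share of 10% or less were kept (19273). HTODemux of Seurat 5.3.0 (kmeans, quantile 0.99) assigned 7452 of them to the 4 listed tags; 5130 carried several tags and were left out as doublets, 2326 had none and 4365 carried other tags. SCTransform (3000 variable genes less the members and list genes), 30 principal components and a resolution of 0.8 gave the clusters. A cluster was named where the mean log2 ratio of its markers was at least 0.5 and at least 3 markers were 1.5-fold higher and found in 10% of cells, thresholds set after the clusters were seen. It stayed unnamed where another list held more of its 10 leading genes, or where its depth was low and no marker led it. It also stayed unnamed where its mean log2 ratio was under 0.5 of the highest one under that name.

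UMIs were summed per mouse and class and tested with edgeR 4.0.16 (filterByExpr, TMM, quasi-likelihood test, Benjamini-Hochberg over all genes of a class, threshold 0.05; R 4.3.3). The fit was tested on simulated data. CPM are UMIs of a gene per 1000000 gene UMIs of the class and mouse. The litters of the mice are not stated, and p-values measure the spread between these mice. Shares were compared with an exact permutation test (scipy 1.17.1). Alternatives were DESeq2 1.42.0, no TMM, no filter, leaving out each mouse, resolutions 0.4 and 1.2, Scrublet (scanpy 1.11.5), the highest tag share (0.6), a minimum of 2500 UMIs, other minima of *Ren1* and, chosen after seeing the data, clara in HTODemux and other settings of the differences between classes.

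The members and the lists were chosen with earlier results of these data known. Named are the members, list genes called in a class, the 2 genes of each list with the highest CPM and, for each member reaching 20 CPM in a class, the 5 genes with the most similar log2(mean CPM + 10) over classes; a few genes that this rule names are not reported here, and where the text goes beyond the rule it says so. Gene positions are from GENCODE on GRCm38.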

Additional observations from a re-analysis of the deposited data

Results flagged for a closer look

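In 4 pairs of classes the change of *Enpep* between genotypes differed by a test of the difference itself (edgeR interaction term with the mouse as a block, each adjusted over all genes of its pair). The log2 change in cluster 7 exceeded that in cycling-like cells by 1.32, that in ErPT-like cells by 1.46, that in PT-like cells by 1.56 and that in podocyte-like cells by 1.26. All 4 rest on the same sums of cluster 7, which was chosen because *Enpep* was called there. That call was lost without mouse 1 (edgeR adjusted p = 0.417), without mouse 2 (0.437), without the cells marked by Scrublet (0.183) and with each other assignment of cells to mice (0.102 and 0.124). In the same settings 3, 1, 3, 3 and 3 of the differences were called, and 5 without mouse 3 and 6 without mouse 4.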

How the results depend on the processing

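Of the changes of the 9 genes within classes, 1 was called, against 5 without a filter on low counts, 0 without the cells marked by Scrublet, 0 with mice by the highest tag share, 0 with clara and 0 to 9 with a mouse left out (9 without mouse 3 and 9 without mouse 4). Over all cells the count was 0, against 1 without a filter, 1 with DESeq2 and 0 to 4 with a mouse left out. Of the other pathway genes 3 were called, against 2 to 63 with a mouse left out (19 without mouse 3, 63 without mouse 4). Of the differences between cluster 7 and another class 4 were called, against 1 to 6 with a mouse left out (1 without mouse 2, 6 without mouse 4) and 3 in each other setting tried. In these fits a lone mouse is assumed to vary like the other genotype, and the cause of the higher counts was not tested. The shares of all genes called in these settings are not given here, so the counts are not read as results about the 9 genes or the lists. The difference in renin-rich cells among all cells was −0.393 percentage points and ran from −0.956 to 0.169 with a mouse left out, 0.169 being the value without mouse 3. *Ren1* in mural-like cells ran from −0.995 (without mouse 1) to 3.39 (without mouse 3) on the log2 scale and was −0.33 without mouse 4. The class with the highest level was the same for 8 or 9 of the 9 genes with each mouse left out and at both other resolutions, the exceptions being *Agt* at resolution 0.4 (ErPT-like) and *Agtr1b* without mouse 2 or mouse 3 (mural-like). No paired analysis was possible because the mouse numbers are shared by no 2 mice of different genotypes.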

Other observations

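*Akr1b7*, the aldo-keto reductase gene of renin cells, was at 897 and 798 CPM in the mural-like cells of the ko mice and 335 and 342 CPM in those of the wt mice. Both ko mice were above both wt mice, with a log2 fold change of 1.28 ± 0.18 and an edgeR adjusted p of 0.0589, so that it was not called there, while DESeq2 called it (adjusted p = 0.00408). It was singled out after its values were seen. In the renin-rich mural-like cells alone *Akr1b7* was at 1836 and 1927 CPM against 740 and 487 CPM, while *Ren1* in the same cells was at 37700 and 9485 CPM against 29440 and 5766 CPM. In these cells both ko mice were the higher ones for *Akr1b7* and not for *Ren1*. Renin-rich mural-like cells numbered 11 and 8 in the ko mice and 38 and 5 in the wt mice. In the other mural-like cells *Akr1b7* was at 260 and 204 against 89.2 and 318 CPM, where the genotypes overlapped. The part of the renin-rich share in the level of the whole class was not tested. In cluster 14, which held 7 of the other renin-rich cells, *Akr1b7* went the other way, at 60.3 and 17.3 CPM in the ko mice and 79.3 and 114 CPM in the wt mice (log2 fold change −1.35 ± 0.42, unadjusted p = 0.00669, edgeR adjusted p = 0.465).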
